A study of Mus musculus with 2 samples.

Results

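The 67 genes described here encode the glutathione transferases (Gst and Mgst), UDP-glucuronosyltransferases (Ugt) and cytosolic sulfotransferases (Sult) of the mouse, and were measured in the adrenal gland. They were chosen by name: every protein-coding gene whose symbol has the form of a Gst, Mgst, Ugt or Sult subfamily member, with no measured value used, out of 55536 annotated genes of which 22015 are nuclear and protein-coding. The set holds 22 soluble glutathione transferases (GST), 3 membrane-bound ones (MGST), 9 members of the UGT1A locus, 10 UGT2 genes, 2 UGT3 genes and 21 sulfotransferases (SULT). The adrenal glands were those of B6CASTF1/J males, an F1 hybrid of C57BL/6J and CAST/EiJ, 36 days old and given no treatment named in the labels. Both libraries, replicate 1 and replicate 2, belong to this single group. There is no contrast between conditions, and the only comparison is between the 2 libraries. The labels of the tissue samples name a different animal for each library, whereas the labels of the libraries name the same animal, so the spread between them may be technical.

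These enzymes carry out conjugation, the step of detoxification that couples a reactive or fat-soluble compound to a water-soluble group. Glutathione transferases use the tripeptide glutathione and also reduce lipid peroxides, glucuronosyltransferases use UDP-glucuronic acid in the endoplasmic reticulum, and sulfotransferases use the sulfate donor PAPS in the cytosol. Steroid hormones are substrates of the last 2 families, and the steroid-making mitochondria of the adrenal cortex are a known source of lipid peroxides.

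The gene tables held 35511254 and 30169307 expected counts on annotated genes in replicates 1 and 2. Nuclear protein-coding genes took 31.0% and 23.2% of all TPM (a level per transcript length, with the same total in both libraries), while the 7SL RNA genes took 32.5% and 48.9%. A deposited TPM value in replicate 1 therefore runs above that in replicate 2 for a gene with an equal share of the coding RNA, and ratios between libraries are given on counts scaled by TMM. The adrenal identity of both libraries was checked on marker lists, which were chosen with earlier results of these data known. All 8 adrenal cortex markers and all 8 chromaffin cell markers were above 1 TPM in both, with sums of 15963 and 8727 TPM for cortex and 1446 and 1691 TPM for chromaffin cells. Replicate 2 stood apart in 8 pancreas markers, which held 177 expected counts in replicate 1 and 266131 in replicate 2, with 4 of the 8 at 0 in replicate 1. The 8 liver markers summed to 89.3 and 203 TPM in replicates 1 and 2, and Alb, serum albumin, stood at 7.24 and 51.4 TPM. Of 8 kidney markers, 5 were at 0 counts in both libraries.

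Among the transferases of the adrenal gland, the genes of glutathione conjugation were by far the highest. The GST genes summed to 520 TPM in replicate 1 and 375 TPM in replicate 2 (448 ± 103, mean ± SD, n = 2), and the MGST genes to 335 and 282 TPM (309 ± 37.6). The SULT genes summed to 20.8 and 20.6 TPM, the UGT1A genes to 8.31 and 5.97 TPM, the UGT2 genes to 0.19 and 6.10 TPM, and the UGT3 genes to 0.14 and 0.42 TPM. GST and MGST genes together thus carried nearly all of the transferase message, with GST genes at 58.8% and 54.3% of the summed TPM and MGST genes at 37.9% and 40.9%. Rescaled over nuclear protein-coding genes alone, where both libraries have the same total, the 67 genes summed to 2851 and 2969 parts per 1e6 of coding TPM. On that scale the GST genes stood at 1676 and 1614, the MGST genes at 1080 and 1213, the SULT genes at 67.0 and 88.6, the UGT1A genes at 26.8 and 25.7, the UGT2 genes at 0.612 and 26.2 and the UGT3 genes at 0.451 and 1.81. In bulk tissue, fewer cells of a type and less RNA per cell cannot be told apart.

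Of the 67 genes, 24 reached 1 TPM in both libraries and 10 reached 10 TPM in both. A further 8 reached 1 TPM in 1 library, Sult1e1 in replicate 1 and 7 others in replicate 2. The remaining 35 were under 1 TPM in both, the highest value among them being 0.88 TPM. By class, 16 of 22 GST genes, 3 of 3 MGST genes, 3 of 21 SULT genes, 2 of 9 UGT1A genes and none of the 10 UGT2 and 2 UGT3 genes were at 1 TPM in both. A total of 13 genes had 0 counts in both libraries, which at the floor of 3 counts allows up to 0.0845 and 0.0994 CPM (counts scaled to the library total). Few genes made up most of the total: the highest alone gave 30.0% and 33.2% of the summed TPM, the highest 3 gave 56.6% and 59.6%, and the highest 5 gave 71.0% and 71.1%.

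**Figure D1:**
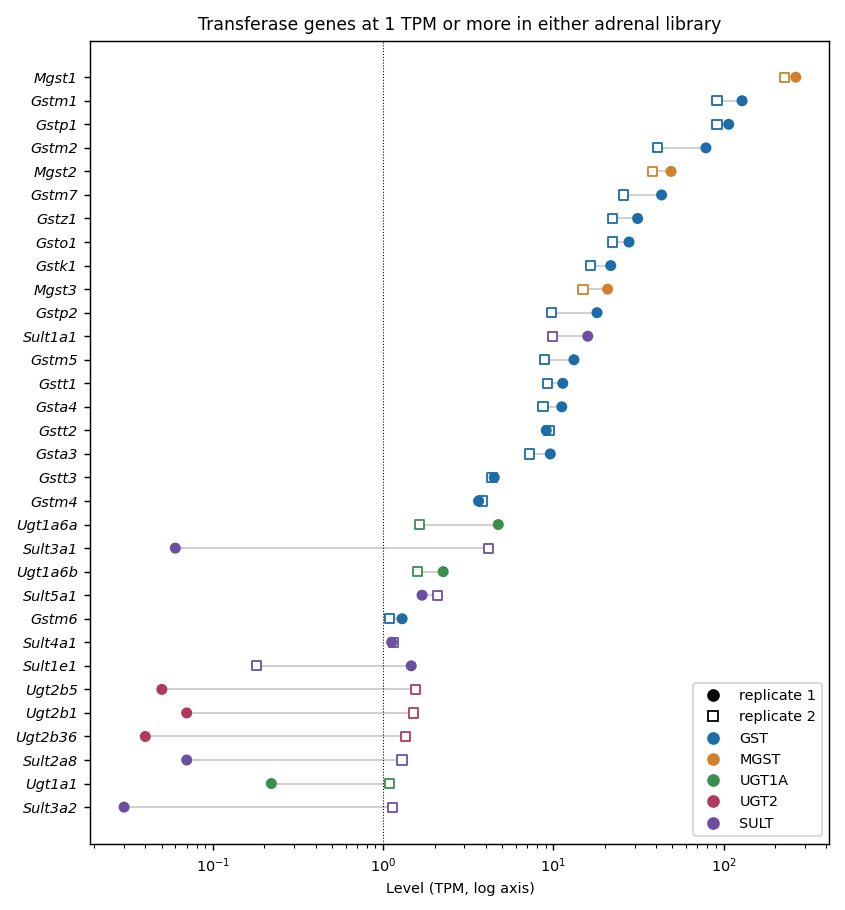
Deposited TPM (log axis) of the 32 transferase genes at 1 TPM or more in either library, ordered by mean TPM; filled circles are replicate 1, open squares replicate 2, colours the enzyme classes, and the dotted line 1 TPM. Mgst1 leads at 265.37 and 228.78 TPM, and the long grey lines at the low end belong to Sult, Ugt2b and Ugt1a1 genes that lie under 1 TPM in 1 of the libraries.

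The libraries were compared gene by gene with a two-sided exact binomial test on scaled counts, over the 14780 genes whose CPM averaged 1 or more. To pass, a gene needed a ratio of 2-fold or more and an adjusted p (Benjamini-Hochberg) below 0.05. The test sets 1 library against 1, so it describes these libraries, has no replicate check and says nothing of a condition. Of the 67 genes 32 were tested and 8 passed, which is 25% of them, where 6.87% of all tested genes passed. Only Ugt1a6a was higher in replicate 1, the direction in which 1.74% of all tested genes passed. The other 7 (Sult3a1, Ugt2b36, Ugt2b5, Ugt2b34, Ugt2b1, Sult2a8 and Ugt1a1) were higher in replicate 2, the direction in which 5.13% passed. Each of these 7 had a CPM under 1 in replicate 1, so it entered the test through its level in replicate 2 and had to differ, and their number is not read against the background. With a CPM of at least 1 asked in both libraries, a setting chosen after seeing the data, 1 of 25 genes passed (Ugt1a6a), where 3.88% of all genes passed.

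The 24 tested genes that did not pass had log2 ratios from -0.46 to 0.51, replicate 1 over replicate 2, with a median of -0.05. The median over all 32 tested was -0.13, beside -0.01 over all tested genes. All 19 tested GST and MGST genes were among the 24. Scaling by the spike-in RNA added to each library shifted the log2 ratio of every gene by 0.89, so that the median over all tested genes became 0.88. Since the shift is the same for all, a member's ratio relative to that median does not change with it, but the sign of a small ratio does.

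**Figure D2:**
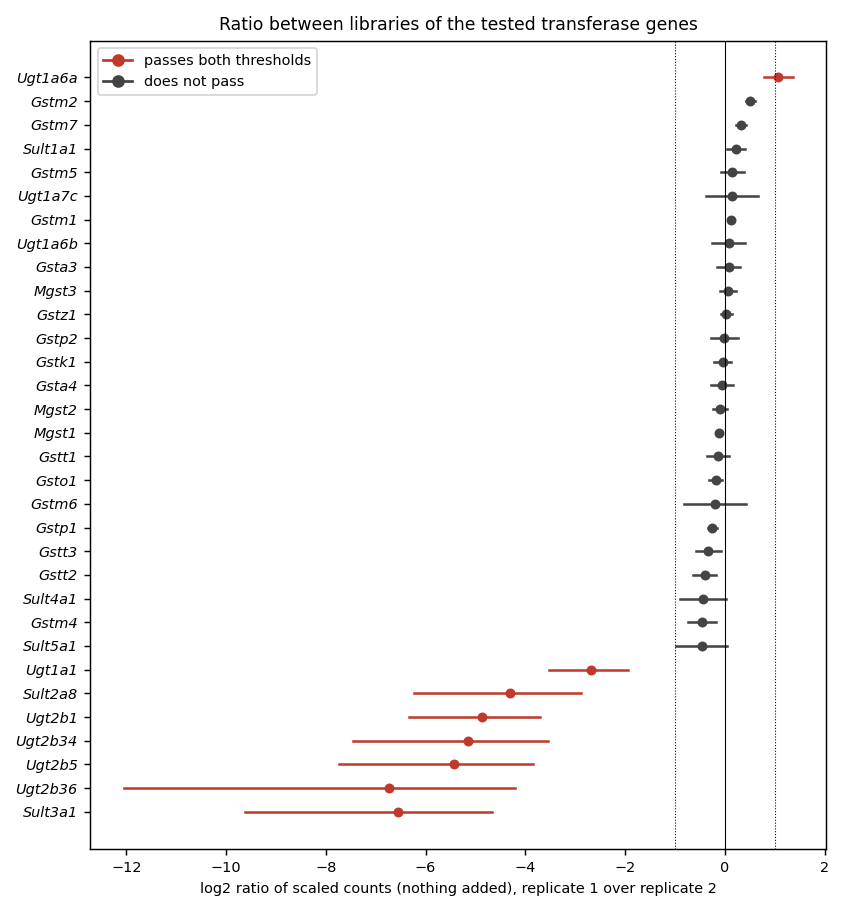
Log2 ratio of scaled counts (nothing added), replicate 1 over replicate 2, of the 32 tested transferase genes, with exact 95% intervals as bars; red marks genes that passed both thresholds and dotted lines mark a 2-fold ratio. The GST and MGST genes lie between the dotted lines, Ugt1a6a passes to the right at 2.10-fold, and 7 Sult and Ugt genes lie far to the left with wide intervals.

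**Figure D3:**
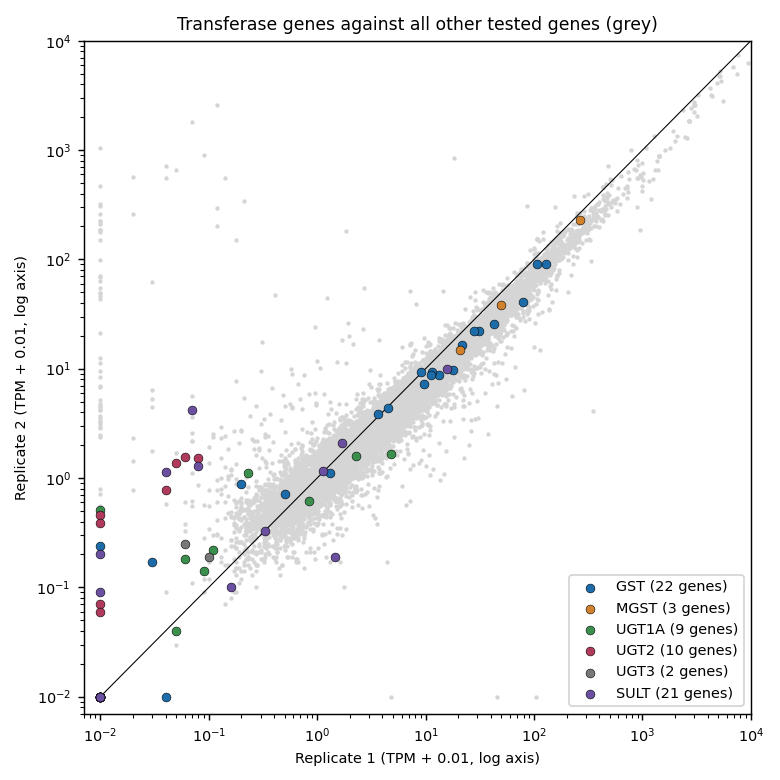
TPM plus 0.01 (log axes) in replicate 1 and replicate 2 of the 67 transferase genes, coloured by class, over the other tested genes in grey; the line marks equal values. The GST and MGST genes follow the grey cloud, while the passing Ugt2 and Sult3a genes lie above it at the left, under 0.1 TPM in replicate 1.

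Mgst1, a membrane-bound enzyme of the endoplasmic reticulum and the outer mitochondrial membrane that conjugates electrophiles and reduces lipid peroxides, was the highest member. It stood at 265.37 TPM in replicate 1 and 228.78 TPM in replicate 2 (247 ± 25.9), rank 130 among nuclear protein-coding genes by mean TPM. The gene lies on chromosome 6 (138140316 to 138156755, plus strand, mm10). Its counts were 5988 and 5329, and the log2 ratio of replicate 1 over replicate 2 was -0.12 on scaled counts. Mgst2, which also makes leukotriene C4, was at 49.05 and 38.29 TPM, and Mgst3, a relative of both, at 20.79 and 14.91 TPM. All 3 MGST genes lie on different chromosomes, all were above 10 TPM in both libraries, and their log2 ratios lay between -0.12 and 0.05. Mgst1 was spread over several coding transcripts, with Mgst1-207 holding 39.6% and 39.7% of its TPM and Mgst1-204 holding 39.4% and 38.1%.

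The start region of Mgst1 is shown because it belongs to the highest member and holds the core of the antioxidant response element, the sequence to which the factor NRF2 is known to bind with small MAF partners. The 300 bases are RefSeq's on GRCm38.p6, chr6:138140277-138140576, plus strand, running from 250 bases before a RefSeq start at 138140527 to 50 after it. It is 1 of 2 RefSeq windows of the gene, and this start lies downstream of the first base of the GENCODE gene (138140316), so the match lies within the GENCODE gene. Capitals mark the match to TGACNNNGC, which begins 56 bases before the RefSeq start and lies on the opposite strand.
Mgst1: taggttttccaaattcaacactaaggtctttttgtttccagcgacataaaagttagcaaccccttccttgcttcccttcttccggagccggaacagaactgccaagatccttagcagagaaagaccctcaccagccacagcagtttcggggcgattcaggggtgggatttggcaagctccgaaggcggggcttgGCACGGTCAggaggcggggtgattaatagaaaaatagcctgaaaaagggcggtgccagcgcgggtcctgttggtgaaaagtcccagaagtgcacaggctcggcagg

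The soluble GST genes were led by the mu and pi classes. Gstm1, the main mu enzyme, stood at 128.29 TPM in replicate 1 and 91.46 TPM in replicate 2 (110 ± 26.04), rank 371. Gstm2 was at 78.67 and 41.06 TPM, and Gstm7 at 43.17 and 25.67 TPM. These 3 mu genes belong to a cluster on chromosome 3, where 7 Gstm genes lie between 107895821 and 108044894 (mm10) and together reached 268 and 172 TPM. Gstm5 had 13.19 and 8.83 TPM, Gstm4 3.63 and 3.84 TPM, and Gstm6 1.29 and 1.09 TPM. Gstm3 was the one mu gene under 1 TPM in both, with 0.02 and 0.16 TPM. The mu genes differed in their ratio between libraries though none passed. The scaled count of Gstm2 in replicate 1 exceeded that in replicate 2 by a factor of 1.43 (exact 95% limits 1.34 and 1.52). The scaled count of Gstm7 did so by 1.25 (1.16 and 1.34), while Gstm4 had a log2 ratio of -0.45. Coding sequences of Gstm1 and Gstm2 are 85.9% identical, those of Gstm1 and Gstm7 82.6%, of Gstm1 and Gstm4 80.1%, and of Gstm1 and Gstm5 69.6%. In Gstm1, 14.8% of all 75-base stretches of the main coding transcript also occur in transcripts of other genes, while no such stretch was found in Gstm5, Gstm7 or Gstm4.

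The start region of Gstm1, the soluble transferase with the highest mean TPM in the gene tables, is shown because it carries a TATA box (RefSeq, GRCm38.p6, chr3:108017769-108018068, minus strand). The box is marked in capitals and begins 30 bases before the RefSeq start at 108017818, which lies inside the GENCODE gene, whose first base is 108017973.
Gstm1: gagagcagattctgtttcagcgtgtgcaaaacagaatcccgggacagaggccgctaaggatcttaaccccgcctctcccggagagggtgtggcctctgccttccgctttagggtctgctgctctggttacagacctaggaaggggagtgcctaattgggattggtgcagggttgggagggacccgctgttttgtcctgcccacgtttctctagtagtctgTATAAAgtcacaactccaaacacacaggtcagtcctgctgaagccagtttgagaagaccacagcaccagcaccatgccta

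Gstp1, the pi-class enzyme, stood at 107.04 and 91.33 TPM (99.2 ± 11.1) with a log2 ratio of -0.25, and Gstp2, its neighbour on chromosome 19, at 18.02 and 9.70 TPM. Gstp3, the third gene of this cluster, was at 0.19 and 0.88 TPM. The split between Gstp1 and Gstp2 is uncertain, because their coding sequences differ at 12 of 630 positions (98.1% identity) and 57.7% of the 75-base stretches of Gstp1 and 64.4% of those of Gstp2 are shared with other genes. The authors' deposited TPM interval for Gstp2 was wide, from 14.8 to 30.7 TPM in replicate 1 and from 7.72 to 34.6 TPM in replicate 2. With a log2 ratio of -0.01 in the gene table and 1.27 in the second transcript file, Gstp2 reversed direction with the file. The first 90 coding bases of both, on the minus strand of chromosome 19, hold 6 of the differing positions, shown in capitals.
Gstp1: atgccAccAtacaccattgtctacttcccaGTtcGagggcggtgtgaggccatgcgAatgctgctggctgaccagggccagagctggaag
Gstp2: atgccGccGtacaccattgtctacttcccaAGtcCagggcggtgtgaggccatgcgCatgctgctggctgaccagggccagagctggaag

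Genes of the zeta, omega, kappa and theta classes came next. Gstz1, the maleylacetoacetate isomerase of tyrosine breakdown, was at 31.22 and 22.34 TPM. Gsto1, an omega enzyme that reduces dehydroascorbate, was at 27.80 and 22.29 TPM, and Gstk1, found in mitochondria and peroxisomes, at 21.70 and 16.50 TPM. Their log2 ratios lay close to 0, at 0.03 for Gstz1, -0.18 for Gsto1 and -0.04 for Gstk1. Gsto2, the neighbour of Gsto1, reached only 0.50 and 0.70 TPM. Of the theta genes on chromosome 10, Gstt1 had 11.34 and 9.27 TPM, Gstt2 9.07 and 9.41 TPM and Gstt3 4.49 and 4.35 TPM. The remaining theta gene, Gstt4, had 1 count in replicate 1 and 0 in replicate 2.

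The alpha genes, whose products are known as abundant in liver, were at lower levels than the leading mu and pi genes Gstm1, Gstm2, Gstm7 and Gstp1. Gsta4, which conjugates the lipid peroxidation product 4-hydroxynonenal, was at 11.19 and 8.68 TPM, and Gsta3 at 9.58 and 7.24 TPM. GSTA3 of humans is known as a steroid double-bond isomerase. Gsta2 had 0 and 7 counts in replicates 1 and 2, and Gsta1 had 0 counts in both. Counts of Gsta1 and Gsta2 are uncertain, since 86.3% and 46.9% of their 75-base stretches occur in other genes. Gsta3 (chromosome 1) and Gsta4 (chromosome 9) do not lie in 1 cluster and are 65.6% identical in their coding sequences.

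Among the sulfotransferases a single gene was prominent. Sult1a1, the phenol sulfotransferase, stood at 15.9 TPM in replicate 1 and 9.9 TPM in replicate 2 (12.9 ± 4.24), with a log2 ratio of 0.22. Sult5a1 had 1.69 and 2.08 TPM and Sult4a1, known as a brain enzyme with no settled substrate, 1.12 and 1.15 TPM. Sult2b1, the sulfotransferase of cholesterol and pregnenolone, had 0.32 TPM in both, from 13 and 14 counts. In the Sult2a subfamily, whose human relative SULT2A1 makes DHEA sulfate in the adrenal cortex, 7 of 8 genes (Sult2a1 to Sult2a7) had 0 counts in both libraries. The remaining one, Sult2a8, had 0.07 and 1.29 TPM from 4 and 65 counts and passed as 19.8-fold higher in replicate 2 (exact 95% limits 7.39 and 75.02). Sult1b1, Sult1c1 and Sult6b2 were also at 0 counts in both, and Sult1c2, Sult1d1 and Sult6b1 lay under 0.2 TPM in both.

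Sult1e1, the estrogen sulfotransferase, is the 1 gene that reached 1 TPM in replicate 1 alone. It had 1.46 TPM from 59 counts in replicate 1 and 0.18 TPM from 8 counts in replicate 2, 6.04 times as many scaled counts in replicate 1 (exact 95% limits 2.87 and 14.6). Its mean CPM was under 1, so it was not among the tested genes. Its start region is shown for contrast with Ugt2b5, which differed the opposite way and lies on the same strand of the same chromosome 5 cluster (RefSeq, GRCm38.p6, chr5:87591562-87591861, minus strand). Capitals mark AAGGTCA, a sequence to which the steroidogenic factor NR5A1 is known to bind, here on the opposite strand and beginning 113 bases before the start.
Sult1e1: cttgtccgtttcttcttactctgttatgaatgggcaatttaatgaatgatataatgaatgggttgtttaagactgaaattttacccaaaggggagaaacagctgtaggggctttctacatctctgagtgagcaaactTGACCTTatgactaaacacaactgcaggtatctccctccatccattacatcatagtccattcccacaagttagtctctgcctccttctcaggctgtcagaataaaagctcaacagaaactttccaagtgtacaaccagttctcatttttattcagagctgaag

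Sult3a1, a sulfotransferase of amines, and its neighbour Sult3a2 on chromosome 10 were seen almost only in replicate 2. Sult3a1 had 0.06 TPM (2 counts) in replicate 1 and 4.17 TPM (153.57 counts) in replicate 2, a 94.0-fold higher scaled count in replicate 2 (exact 95% limits 25.6 and 784). Sult3a2 had 0.03 TPM (1 count) and 1.13 TPM (36.43 counts), a 44.0-fold higher scaled count in replicate 2 (7.40 to 1784). Both folds rest on 1 or 2 counts in replicate 1. The second transcript file gave a 164-fold ratio toward replicate 2 for Sult3a1 (29.03 to 6541), from counts of 1 and 138 in replicates 1 and 2, and a 19.1-fold ratio for Sult3a2 (4.86 to 164), from counts of 2 and 32. The genes face opposite ways, Sult3a1 on the plus and Sult3a2 on the minus strand, and their coding sequences differ at 80 of 879 positions (90.9% identity). Only 1.95% and 2.22% of their 75-base stretches are shared, so their counts can be told apart in most places. Their replicate 2 counts are not whole, so some reads were divided there. Coding bases 16 to 105 of each are shown with their 18 differing positions in capitals.
Sult3a1: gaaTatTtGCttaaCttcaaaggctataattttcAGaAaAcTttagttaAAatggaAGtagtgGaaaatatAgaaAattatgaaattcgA
Sult3a2: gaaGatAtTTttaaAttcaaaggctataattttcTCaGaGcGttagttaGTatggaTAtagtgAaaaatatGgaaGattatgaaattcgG

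The UGT1A locus on chromosome 1 (88055388 to 88220002, plus strand, mm10) makes 9 enzymes from separate first exons joined to shared later exons, and the last 737 coding bases are the same in all 9. That common end is 45.9% of the longest and 46.5% of the shortest coding sequence, and all 9 genes have counts that are not whole, which come from dividing reads between transcripts. Ugt1a6a, which conjugates small planar phenols, was at 4.74 and 1.64 TPM, and Ugt1a6b at 2.25 and 1.59 TPM. Ugt1a7c was at 0.83 and 0.61 TPM, while Ugt1a1, the bilirubin-conjugating enzyme, was at 0.22 and 1.09 TPM. The other 5 lay at 0.5 TPM or less in both libraries. Within the locus the genes thus went different ways: Ugt1a6a passed as 2.10-fold higher in replicate 1 (1.73 to 2.57), Ugt1a1 passed as 6.47-fold higher in replicate 2 (3.82 to 11.6), and Ugt1a6b had a log2 ratio of 0.07. Ugt1a10 had 0 counts in replicate 1 and 34.49 in replicate 2, at least 13.8-fold higher there against a floor of 3 counts. That bound leaves out the division of reads. The authors' deposited TPM intervals for Ugt1a10 overlapped, from 0.0161 to 0.410 in replicate 1 and from 0.349 to 1.03 in replicate 2.

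The call on Ugt1a6a depends on how reads were divided. All of its 75-base stretches occur in transcripts of other genes of the locus, and the log2 ratio of 1.07 became 0.85 in the second transcript file, under the threshold. Ugt1a6a and Ugt1a6b differ at 26 of 1593 coding positions (98.4% identity). The 90 coding bases from 271 to 360 hold 13 of these, marked by capitals.
Ugt1a6a: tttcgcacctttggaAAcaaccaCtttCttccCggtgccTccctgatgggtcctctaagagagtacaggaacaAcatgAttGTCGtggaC
Ugt1a6b: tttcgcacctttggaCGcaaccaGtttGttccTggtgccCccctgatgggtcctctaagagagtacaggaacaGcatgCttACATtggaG

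The UGT2 genes were near the detection limit in replicate 1. The 10 genes together held 13 expected counts in replicate 1, against 519 in replicate 2, a 48.8-fold higher scaled sum in replicate 2 (28.3 to 92.2). The Ugt2b genes, whose products conjugate steroids and bile acids and are best known from liver, gave nearly all of these. Ugt2b5 had 0.05 TPM (3 counts) in replicate 1 and 1.55 TPM (106.13 counts) in replicate 2, Ugt2b1 had 0.07 TPM (6 counts) and 1.5 TPM (144 counts), and Ugt2b36 had 0.04 TPM (1 count) and 1.35 TPM (87 counts). Ugt2b34 had 0.03 TPM (3 counts) and 0.76 TPM (87 counts). All 4 passed as higher in replicate 2, Ugt2b36 by 106-fold (18.6 to 4245), Ugt2b5 by 43.2-fold (14.4 to 213), Ugt2b34 by 35.4-fold (11.7 to 175) and Ugt2b1 by 29.3-fold (13.1 to 81.2). The value of Ugt2b36 rests on a single count in replicate 1, and in the second transcript file, with 3 and 90 counts, it was 35.7-fold higher in replicate 2 (11.8 to 177). Ugt2b35 had 0 and 57 counts, at least 23.2-fold higher in replicate 2, and Ugt2a3 0 and 30 counts, at least 12.2-fold higher. Ugt2b37 and Ugt2b38 had 0 counts in replicate 1 and 4.11 and 3.76 in replicate 2. Ugt2a1 and Ugt2a2 were at 0 counts in both, and the UGT3 genes Ugt3a1 and Ugt3a2, of a family known to use other sugars, had 2 and 14 counts and 3 and 21 counts in replicates 1 and 2.

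All 10 UGT2 genes lie in 1 stretch of chromosome 5 (86889767 to 87591594, mm10) with Sult1b1, Sult1d1 and Sult1e1. The 13 genes of this stretch summed to 1.65 TPM in replicate 1 and 6.47 TPM in replicate 2, and none was at 1 TPM in both. Sult1e1 gave 1.46 of the 1.65 TPM in replicate 1, and 0.18 of the 6.47 TPM in replicate 2, where Ugt2b5, Ugt2b1 and Ugt2b36 led. The coding sequences of Ugt2b5 and Ugt2b38 are 97.0% identical and those of Ugt2b5 and Ugt2b1 72.5%. In Ugt2b5 30.4% of the 75-base stretches are shared with other genes, and in Ugt2b1 and Ugt2b36 none, so the counts of Ugt2b1 and Ugt2b36 do not rest on divided reads.

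The start region of Ugt2b5, one of the 4 UGT2 genes that passed, is shown with its match to AAGGTCA in capitals, beginning 23 bases before the start on the gene's own strand (RefSeq, GRCm38.p6, chr5:87140291-87140590, minus strand).
Ugt2b5: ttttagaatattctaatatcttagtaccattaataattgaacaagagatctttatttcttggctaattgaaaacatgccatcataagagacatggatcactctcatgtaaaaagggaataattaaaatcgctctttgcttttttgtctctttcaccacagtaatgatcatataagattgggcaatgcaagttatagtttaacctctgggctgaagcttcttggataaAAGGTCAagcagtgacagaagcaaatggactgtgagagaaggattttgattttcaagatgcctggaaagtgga

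Some markers of other organs were also higher in replicate 2, the direction in which 5.13% of all tested genes passed. The 7 members that passed in this direction entered the test through their replicate 2 level, so sharing it is no separate result. Of the 8 liver markers 7 passed as higher in replicate 2, from 3.05-fold for Tat, a tyrosine-degrading enzyme, to 18.5-fold for Apoa2, an apolipoprotein, with Alb at 9.54-fold (8.68 to 10.5). Cyp2e1 did not pass, with 75.65 TPM in replicate 1 and 82.04 TPM in replicate 2. All 7 tested pancreas markers passed in the same direction, from 129-fold for Cpb1 (111 to 151) to 31563-fold for Ctrb1 (10800 to 153055), both digestive enzymes. The Ugt2b ratios of 29.3-fold to 106-fold (30.4-fold to 35.7-fold in the second transcript file) lay between those ranges, and Ugt1a1 at 6.47-fold lay within the range of the liver markers. The chromaffin markers had a median log2 ratio of -0.46 with none passing, and the cortex markers 0.42 with 1 passing, Nr5a1. The part of other organs in the levels of the Ugt2, Ugt1a1, Sult2a8 and Sult3a genes was not tested. Of the 8 kidney markers, 5 were at 0 counts in both libraries and only 2 could be tested, neither of which passed.

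**Figure D4:**
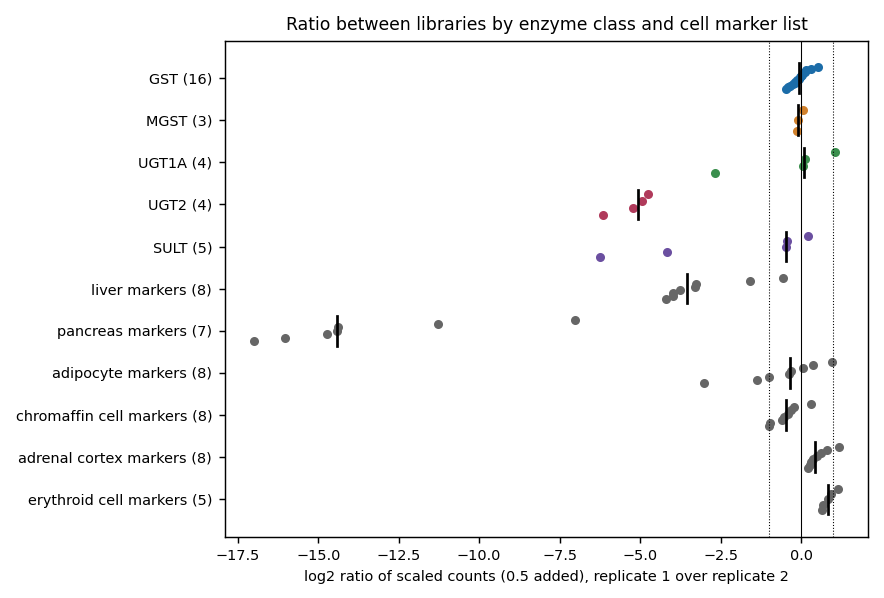
Log2 ratio of scaled counts (0.5 added), replicate 1 over replicate 2, of each tested gene, by enzyme class (coloured) and by cell marker list (grey), with the number of tested genes in parentheses, a black bar for each median and dotted lines at a 2-fold ratio. The GST and MGST medians are -0.05 and -0.10, the UGT2 median -5.07, the liver marker median -3.53 and the pancreas marker median -14.43.

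The order of the levels was stable only in outline. Ordered by mean TPM, the 32 genes at 1 TPM in either library form 31 neighbouring pairs, and in 25 of them the ranges over the 2 libraries overlap. Part of this overlap came from the higher deposited TPM of coding genes in replicate 1. On TPM rescaled over nuclear protein-coding genes, 18 of the same 31 pairs overlapped and 13 did not. The ranges of Gstm1 and Gstp1, of Gstm2 and Mgst2, of Mgst2 and Gstm7, of Gstm7 and Gstz1 and of 4 other pairs overlapped in deposited TPM and not in rescaled TPM, while those of Gstt3 and Gstm4 overlapped only when rescaled. Gstm1 had rescaled TPM of 413 and 394 in replicates 1 and 2, and Gstp1 345 and 393. The second transcript file gave Gstp1 208 and 273 TPM and Gstm1 225 and 221 TPM, so that Gstp1 was there the higher by mean and in replicate 2. The pairs whose ranges overlapped on neither scale include Mgst1 above Gstm1, Gsta3 above Gstt3, and Sult5a1 above Gstm6. Within a library the order does not depend on the rescaling, and 15 of the 31 pairs swapped order between replicate 1 and replicate 2.

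Most of the genes were read as coding RNA, yet some levels rest partly on noncoding transcripts. For 26 of the 32 genes at least 90% of the TPM fell on protein-coding transcripts in both libraries. For Gstp1 the share was 59.5% and 64.1%, with 39.9% and 35.02% on the retained-intron transcript Gstp1-203. Gsto1 had 56.3% and 82.5% on coding transcripts, with 40.8% and 11.5% on Gsto1-204, a processed transcript without a reading frame. Gstt2 had 72.1% and 41.6%, and Gstm1 82.1% and 76.7%. Sult5a1 had the lowest share, 12.4% and 31.4%, since Sult5a1-202, annotated as a target of nonsense-mediated decay, held 75.1% and 54.6%. The shares of Gsto1, Gstt2 and Sult5a1 thus differed widely between libraries while their gene-level ratios did not pass.

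**Figure D5:**
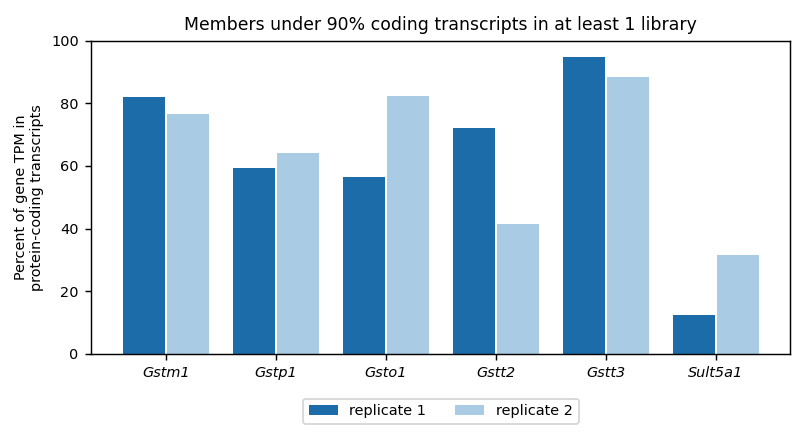
Percent of a gene's deposited TPM that fell on protein-coding transcripts, for the 6 transferase genes under 90% in at least 1 library; dark bars are replicate 1 and light bars replicate 2. Sult5a1 is lowest at 12.4% and 31.4%, and Gsto1 and Gstt2 differ most between the libraries, in opposite directions.

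In the genome the transferases are clustered. With a gap of up to 500 kb, 55 of the 67 genes fall into 11 clusters and 12 stand alone. Clusters differed in how evenly they were used: in the Gstm cluster 6 of 7 genes reached 1 TPM in both libraries, in the Gstt cluster 3 of 4, in the Gstp cluster 2 of 3, in the Ugt1a locus 2 of 9, and in the Sult2a cluster (chromosome 7, 13623967 to 14494230) none of 8. The gene at the top, Mgst1, stands alone.

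Start regions were searched for 5 known sequences on both strands, with overlapping matches counted for each. RefSeq windows of 300 bases were matched for 59 of the 67 genes, in 71 windows, and compared with all 32851 windows. TGACNNNGC, the core of the antioxidant response element, was in 5.63% of the transferase windows and in 12.4% of all windows. AAGGTCA, the NR5A1 sequence, was in 9.86% against 4.72%, GTTAAT, part of the HNF1 site, in 19.7% against 7.10%, TATAAA in 22.5% against 13.6%, and GCGTG, the core to which the dioxin receptor AHR binds, in 19.7% against 32.4%. A match is a description of letters and not a site in use. The transferase windows include those of neighbouring, similar genes, so they are not independent of each other. Ugt2b5, Ugt2b36, Ugt2b37 and Ugt2b38 were among the 7 genes with AAGGTCA. Sult2a3, Sult2a4, Sult2a5 and Sult2a6 were among the 14 genes with GTTAAT, as were Ugt1a1, Ugt1a6a, Ugt1a9 and Ugt1a10. The 4 genes with the antioxidant core were all GST or MGST genes at 1 TPM or more in both libraries. That level was reached by 16 of 22 GST genes and 3 of 3 MGST genes, so it is not read as a trait of the 4. They are given here on GRCm38.p6 with their neighbouring bases and the core in capitals.
Gsta3 (chr1:21240454-21240482, plus strand): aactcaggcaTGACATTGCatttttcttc
Gstm5 (chr3:107895802-107895830, plus strand): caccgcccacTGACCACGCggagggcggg
Gstm7 (chr3:107931725-107931753, minus strand): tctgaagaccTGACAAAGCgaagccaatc
Mgst1 (chr6:138140461-138140489, plus strand): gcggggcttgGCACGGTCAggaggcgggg
The AAGGTCA matches were in 7 genes of unlike level, with Gstk1 at 21.70 and 16.50 TPM and Ugt2b37 and Ugt2b38 under 0.1 TPM in both libraries. Among the Ugt2b genes the same 27 letters stand before Ugt2b5, Ugt2b37 and Ugt2b38, of which Ugt2b5 had 106.13 counts in replicate 2 and the others 4.11 and 3.76.
Gstk1 (chr6:42245784-42245810, plus strand): tctctggatcTGACCTTcccctttatc
Sult1e1 (chr5:87591708-87591734, minus strand): tgagcaaactTGACCTTatgactaaac
Sult2a8 (chr7:14438700-14438726, minus strand): caatagtttaAAGGTCAtattacattt
Ugt2b36 (chr5:87092565-87092591, minus strand): tcttagataaAAGGTCAagcagtgaca
Ugt2b37 (chr5:87254812-87254838, minus strand): tcttggataaAAGGTCAagcagtgaca
Ugt2b38 (chr5:87424213-87424239, minus strand): tcttggataaAAGGTCAagcagtgaca
Ugt2b5 (chr5:87140347-87140373, minus strand): tcttggataaAAGGTCAagcagtgaca

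Most genes that supply or use the co-substrates were well measured and did not pass. Of 18 genes of glutathione synthesis and use, 15 were at 1 TPM in both libraries, 17 were tested and 15 of these did not pass, with a median log2 ratio of -0.00. Among all tested genes 6.87% passed. Esd, which releases glutathione from its formaldehyde adduct, had 98.81 and 65.41 TPM, Glo1, of methylglyoxal removal, 40.32 and 27.53 TPM, Gclm, a subunit of the first enzyme of glutathione synthesis, 36.01 and 22.71 TPM, and Hagh 29.31 and 23.31 TPM. Slc7a11, the cystine importer, passed as 2.17-fold higher in replicate 1 (1.37 to 3.55) at 0.26 and 0.09 TPM, but not in the second transcript file, where it was 1.08-fold higher (0.810 to 1.45). Ggt1, which breaks down glutathione outside the cell, passed as at least 80.2-fold higher in replicate 2, from 0 and 197 counts. It entered the test through its level in replicate 2 alone.

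Of 10 genes of UDP-glucuronic acid supply and use, 9 were at 1 TPM in both and none of the 9 tested passed (median 0.00). Hk2, a hexokinase, stood at 23.30 and 24.45 TPM, Ugp2, which makes UDP-glucose, at 24.14 and 18.62 TPM, Ugdh, which oxidises it to UDP-glucuronic acid, at 25.46 and 15.57 TPM, and Pgm1 at 20.53 and 19.97 TPM. Of 14 genes of PAPS supply and desulfation, 12 were found under their listed symbol, 11 were at 1 TPM in both and none of the 11 tested passed (median 0.15). Bpnt1, a phosphatase of the PAPS product, had 37.34 and 21.21 TPM, Papss1, a PAPS synthase, 17.15 and 11.53 TPM, Slc35b2, a PAPS carrier of the Golgi, 13.10 and 10.72 TPM, and Sumf2 10.29 and 9.46 TPM. The 9 genes of the UDP-glucuronic acid list above 1 TPM stood above every Ugt gene in both libraries.

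Among 20 regulators of conjugating enzymes, 15 were at 1 TPM in both, 17 were tested and 4 passed (median 0.10). Over all tested genes the share that passed was 6.87%. The highest were Nfe2l1, a relative of NRF2, at 158.71 and 104.11 TPM, Nr5a1 at 159.83 and 52.55 TPM, Nfe2l2, which encodes NRF2, at 39.34 and 17.15 TPM, and Mafg, a small MAF, at 23.74 and 13.04 TPM. Nr5a1 passed as 2.27-fold higher in replicate 1 (2.20 to 2.34). Ppara, a fatty acid receptor, passed as 2.18-fold higher in replicate 2 (1.97 to 2.40), Ahrr, the AHR repressor, as 2.37-fold higher (1.53 to 3.72; 1.97-fold and not passing in the second transcript file), and Hnf4a, a factor known from liver and pancreas, as 10.3-fold higher (5.63 to 20.6) at 0.12 and 0.71 TPM. Of 20 genes known as NRF2 targets outside the transferases, 17 were at 1 TPM in both, and of 19 tested only Slc7a11 passed (median 0.16), a call that the second transcript file did not give. Me1, the malic enzyme, had 617.37 and 320.30 TPM, Tkt 435.33 and 356.57 TPM, Taldo1 218.56 and 175.84 TPM, all of NADPH supply and the pentose phosphate pathway, and Srxn1, sulfiredoxin, 163.18 and 72.22 TPM. Nqo1, often used as an NRF2 marker and outside the rule for named genes, was at 1.36 and 0.90 TPM.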

How the data were processed

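Total RNA of 2 adrenal gland libraries was purified with a column kit, reduced in ribosomal RNA and made into directional libraries from 300 ng each with ERCC spike-ins, per the labels. The gene tables hold expected counts that the authors estimated from a transcriptome alignment on mm10 with GENCODE M21, per the file headers and notes. Expected counts divide reads shared between genes and were rounded to whole numbers for the test; the use of strand in counting, the programs and the program versions were not given in the sources used here. TPM was deposited per library, and the authors scaled it over every entry, tRNA and spike-ins among them. In a second transcript file the authors deposited estimated counts and TPM made directly from the reads. Reads of an F1 hybrid were placed on the mm10 sequence, and an effect of the CAST/EiJ alleles on near-identical genes was not tested.

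The 26345 entries that name no gene were left out of library sizes and tests. Library sizes were scaled by TMM (edgeR 4.0.16, R 4.3.3; factors 1.02 and 0.982), log2 ratios had 0.5 added to each count, and tests ran in Python 3.11.15 with scipy 1.17.1, numpy 2.4.6 and pandas 2.3.3; figures used matplotlib 3.10.9. edgeR's quasi-likelihood test could not be fitted with 1 library against 1. The test was run on simulated data first. Exact 95% intervals and the 3-count floor reflect counting error alone, and leave out the spread between animals and the division of reads. Even for counting error they may be too narrow, because without molecular identifiers 2 reads may come from 1 molecule. A count of 0 was set to the floor for a fold, given as a lower bound. Counts were called whole within 0.01.

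Values per library are given for members at 1 TPM or more in either library or passing, and of each list for up to 4 genes highest in mean TPM and those passing. The members and lists were chosen with earlier results of these data known. Shared stretches are 75-base windows found in transcripts of another gene; coding sequences come from GENCODE M21 and promoters from RefSeq on GRCm38.p6. Protein sequences were not used here. Alternatives were DESeq2 1.42.0 size factors, total or spike-in counts, other filters, the second transcript file, subsets of genes, 5 added to counts, a 1.5-fold threshold and the edgeR exact test at a coefficient of variation of 0.1.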

Additional observations from a re-analysis of the deposited data

How the results depend on the processing

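No paired analysis was possible because the 2 libraries form 1 group. Leaving out a library gives no ratio and so no value for the count of members that passed. That count was 8, and it was 8 under DESeq2 size factors, total counts, nuclear protein-coding genes only, the second transcript file, 5 added to counts, a 1.5-fold threshold and the edgeR exact test. The 8 were not the same genes in the second transcript file, where Ugt1a6a no longer passed (0.85) and Gstp2 did. Of all genes 6.87% passed, against 8.65% in the second transcript file and 16.6% past the 1.5-fold threshold. The count of members was 14 under spike-in counts (7 in each direction), where 37.3% of all genes passed, 19 with no filter (7.63%), 1 with a mean CPM of at least 5 (3.14%), 1 with a CPM of at least 1 in both libraries (3.88%, chosen after seeing the data) and 5 without genes at least 32-fold higher in replicate 2 (6.31%), where fewer members were tested in the last 3. The median log2 ratio of the tested members was -0.13 and became 0.76 under spike-in counts and -0.36 with no filter. The log2 ratio of Gstp2 was -0.01 in the gene table and 1.27 in the second transcript file, and the cause was not tested. The count of members at 1 TPM in both libraries was 24, and 25 to 31 with 1 library alone, 26 at 0.5 TPM, 17 at 5 TPM and 26 in the second transcript file. On TPM rescaled over nuclear protein-coding genes it was 27.

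In mean TPM rescaled over nuclear protein-coding genes the classes summed to 1645 for GST, 1146 for MGST, 26.2 for UGT1A, 13.4 for UGT2, 1.13 for UGT3 and 77.8 for SULT. The mean TPM of the second transcript file summed to 989, 597, 13.2, 6.73, 0.625 and 41.4 in the same order. These sums are as deposited and not rescaled, so their size is not compared with the rescaled sums. With 1 library alone the deposited sums ranged from 375 to 520 for GST, 282 to 335 for MGST, 5.97 to 8.31 for UGT1A, 0.19 to 6.10 for UGT2, 0.14 to 0.42 for UGT3 and 20.6 to 20.8 for SULT. Depth limits the 13 members at 0 counts in both libraries, which are undetected at this depth and not shown to be absent.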

Other observations

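Of 14 other genes with a glutathione transferase fold or a membrane relative of the MGST enzymes, 13 were found under their listed symbol, 11 were at 1 TPM in both libraries and none of the 13 tested passed (median log2 ratio -0.08, replicate 1 over replicate 2). Eef1g, a translation elongation factor subunit that carries such a fold, had 109.53 and 80.45 TPM in replicates 1 and 2. That is below Gstm1 and above Gstm2 in both libraries. Clic4 and Clic1, intracellular chloride channel proteins, had 34.56 and 21.11 TPM and 32.87 and 21.42 TPM, and Ptges2, a prostaglandin E synthase, 17.58 and 13.97 TPM.

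Of 10 carriers known to move conjugates across membranes, 6 were at 1 TPM in both libraries, 9 were tested and 2 passed (median -0.13). The share that passed over all tested genes was 6.87%. Abcc5 had 23.56 and 22.05 TPM, Abcg2 11.02 and 6.79 TPM, Abcc1 6.08 and 5.18 TPM and Slco2b1 5.54 and 4.95 TPM. Slc10a6, which takes up sulfated steroids, passed as 2.81-fold higher in replicate 1 (95% exact interval 1.75 to 4.69), with 1.10 TPM there and 0.29 TPM in replicate 2. Abcc2, the canalicular carrier of liver, passed as 5.52-fold higher in replicate 2 (3.49 to 9.09), at 0.09 and 1.37 TPM in replicates 1 and 2. Its TPM differed more than its scaled counts, and the cause was not tested. In the second transcript file Abcc2 had 33 and 120 counts, 4.33-fold higher in replicate 2 (2.93 to 6.58), and Slc10a6 had 98 and 25 counts. Both met the CPM filter mainly through the library where they were higher, so the count of 2 is not read against the 6.87%.

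Among the markers of other cells, Ucp1 and Elovl3 of 8 adipocyte markers passed as higher in replicate 2, and Hba-a2 of 5 erythroid markers as higher in replicate 1, a call not given by the second transcript file (1.6-fold). Over all tested genes 5.13% passed as higher in replicate 2 and 1.74% as higher in replicate 1. The part of adipocytes and erythroid cells in the transferase levels was not tested.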
